A study of Homo sapiens with 4 samples.

Results

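Interferon-stimulated genes are the antiviral programme that a cell switches on when interferon reaches its receptors. Signals from the receptors assemble transcription factors built from STAT proteins and IRF9, which bind short elements in the promoters of these genes, above all the interferon-stimulated response element (ISRE). Monocytes carry a basal level of many of them and raise them strongly on contact with interferon or viral nucleic acid. The genes described here are 34 well-known members of that programme, given as a list of symbols, and every probe set whose single gene symbol in the platform annotation was one of them was read. Of the 34 genes, 32 had such a probe set and 27 were bright enough to be tested, out of 13554 genes tested on the array. GBP1, IFI27, IFI35, IFI44 and IFI44L were measured but dim, and IFI30 and STAT2, which had no probe set of their own, were not analysed here. DDX58, the gene of the RNA sensor RIG-I, appears under its current symbol RIGI.

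The cells were U937, an established human line from a lymphoma of monocytic character. One group of 2 samples had received 100 nM shikonin, a naphthoquinone from gromwell roots, for 3 h, and the other group of 2 samples dimethyl sulfoxide (DMSO), its solvent. No interferon and no virus is named in the labels of either group, and no time is given for the DMSO cells. The question put to the data is whether members of the programme differ between shikonin-treated and solvent-treated cells. Separate cultures are not stated in the labels, and every p-value therefore rests on a spread between samples that may be technical.

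Each sample was read on its own short-oligonucleotide array, and the values are the deposited intensities, called signal below. They carry a common scale, and a change is one against the other probe sets of an array. Changes are differences of log2(signal + 9.94) between shikonin and DMSO, and a gene was called at a limma adjusted p under 0.05 over all 32768 probe sets tested. One probe set, the brightest, stood for each gene in counts. Median signals of the arrays ran from 60.5 to 63.7, and 40% of probe sets lay below a signal of 34.7 to 37.4. Of 13 measured markers of the monocytic line, 11 were above that level on all 4 arrays, CD14 and FCGR1A being the exceptions. Among markers of other cell types no gene was called. Above that level on all arrays were 1 of 5 measured T cell markers, 2 of 4 for B cells, 2 of 3 for NK cells, 1 of 3 for plasmacytoid dendritic cells, 1 of 2 for erythroid cells, 0 of 4 for epithelial cells and 2 of 4 for fibroblasts. Having 2 arrays a group limits the precision throughout, and in bulk RNA fewer cells with a transcript and less of it per cell cannot be told apart.

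Letters of the elements through which interferon acts are shown first, since the windows of the members differ in whether they hold them. In the RefSeq windows on GRCh38.p14, which run from 250 bases before to 50 bases after each annotated start, 27 of the 34 members had an entry. The ISRE core was searched on both strands as GAAANNGAAA, where N is any base. It stood in a window of 18 of these 27 members (66.7%), against 4.38% of all 27305 genes in the table and 3.57% of all 35116 windows. The longer form GAAANNGAAACT, whose matches are also matches of the core, stood in 11 members (40.7%) and 0.322% of genes. TTCNNNGAA, the letters of the gamma-activated site that STAT dimers bind, stood in 6 members (22.2%) and 9.38% of genes. GBP2, IFIT2, IFITM2, MX2, OAS2, OASL and TRIM22 had no entry. Such a match is a run of letters and not a measured binding site. A window without a match can still hold an element of other letters or spacing, and elements outside the windows were not searched.

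These are the upstream stretches of 6 members that hold the core, printed 5′ to 3′ on the strand of the gene with each core match in capitals. The 6 are examples, and none of the 14 tested members with the core was called. Of the 6 genes, 4 (ISG15, IFITM1, IFITM3 and BST2) were measured with narrow intervals. A narrow interval is not an absence of change. The limma intervals of the log2 change lay wholly above no change for BST2 (0.03 to 0.35) and IFI6 (0.02 to 0.82). They lay wholly below it for IFITM1 (-0.344 to -0.004) and for IFIH1 (-0.55 to -0.06), which holds the core but is not printed here.
ISG15, chr1:1013364-1013419, plus strand: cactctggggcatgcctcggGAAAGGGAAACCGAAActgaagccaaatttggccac
IFIT1, chr10:89392487-89392549, plus strand: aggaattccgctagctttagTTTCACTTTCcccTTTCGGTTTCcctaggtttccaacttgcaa
IFITM1, chr11:313980-314029, plus strand: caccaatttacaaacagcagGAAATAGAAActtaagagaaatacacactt
IFITM3, chr11:320866-320932, minus strand: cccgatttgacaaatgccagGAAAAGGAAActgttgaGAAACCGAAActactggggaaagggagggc
BST2, chr19:17405725-17405780, minus strand: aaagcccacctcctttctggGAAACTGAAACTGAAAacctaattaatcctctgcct
IFI6, chr1:27672256-27672368, minus strand: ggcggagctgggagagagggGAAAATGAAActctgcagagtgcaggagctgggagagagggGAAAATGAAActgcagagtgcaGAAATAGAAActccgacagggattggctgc

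ISG15 and BST2 each hold 2 core matches that overlap, and IFI6 holds 3 that do not. In IFIT1 the matches lie on the opposite strand and so read as TTTC pairs.

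The gene that was called, IFI16, has 2 annotated starts, and neither window holds the core. The 250 bases before each are given for comparison.
IFI16, first start, chr1:159008741-159008990, plus strand: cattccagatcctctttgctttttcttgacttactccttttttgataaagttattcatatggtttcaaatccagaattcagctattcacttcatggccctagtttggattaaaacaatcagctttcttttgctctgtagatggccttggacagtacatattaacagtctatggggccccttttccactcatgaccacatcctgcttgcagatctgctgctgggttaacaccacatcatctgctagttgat
IFI16, second start, chr1:159009657-159009906, plus strand: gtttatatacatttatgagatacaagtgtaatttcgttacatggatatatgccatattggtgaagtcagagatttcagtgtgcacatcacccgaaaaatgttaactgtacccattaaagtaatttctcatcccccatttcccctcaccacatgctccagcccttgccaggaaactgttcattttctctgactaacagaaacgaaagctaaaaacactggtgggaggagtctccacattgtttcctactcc

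That these letters are absent says nothing about which factors act on IFI16. The stretch of the second start holds GAAACGAAA, in which the GAAA runs stand closer together than in the searched core.

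Among the 27 tested members, IFI16 was called lower and none was called higher. The limma test called 5.05% of all genes higher and 6.65% lower, against 0 and 1 of the 27 members (0% and 3.7%). At an unadjusted p under 0.05, 2 members were higher (7.41%, against 13.3% of all genes) and 4 lower (14.8%, against 14.6%). The median log2 change of the tested members was -0.12, against 0.00 for all genes tested, and their changes ran from -1.05 (MX1) to 0.42 (IFI6). The median size of change without regard to sign was 0.19 for the members and 0.19 for all genes. Both shikonin arrays lay above both DMSO arrays for 7 members (28.2% of all genes did so, 25.9% of the members) and below them for 8 (27.3% of all genes, 29.6% of the members), and the groups overlapped for the other 12.

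**Figure D1:**
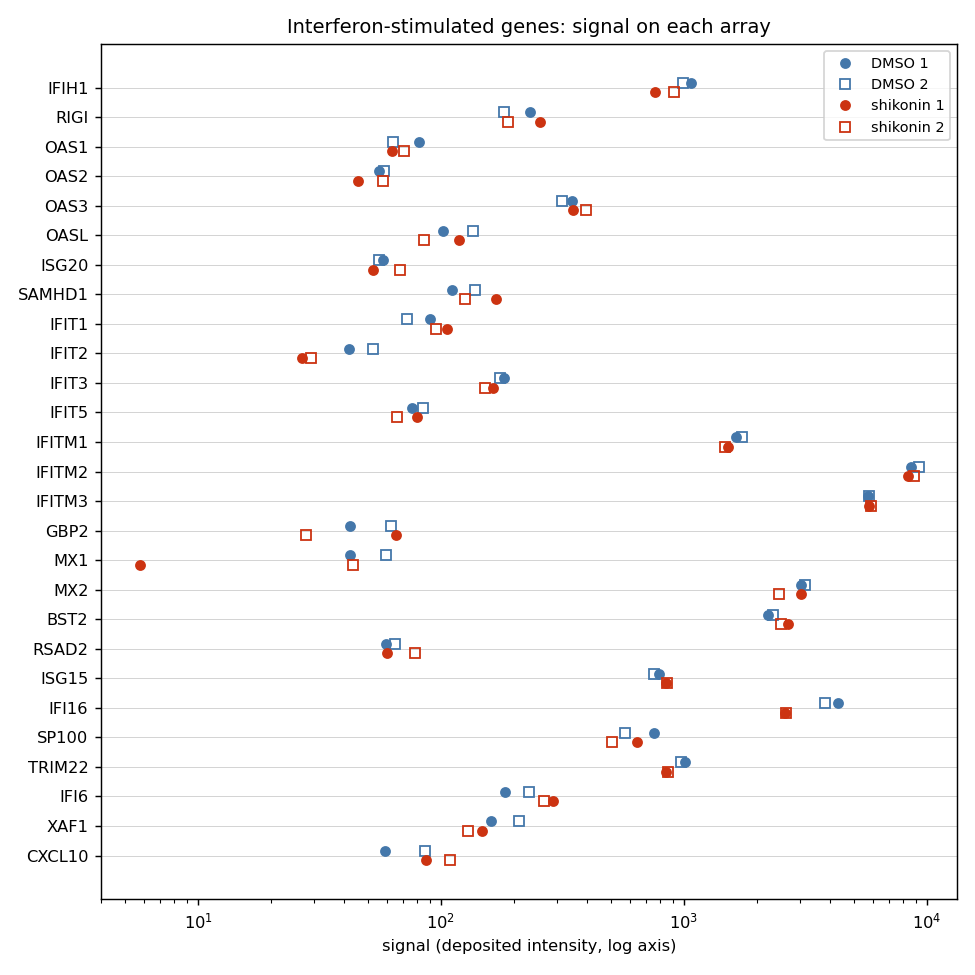
Signal (deposited intensity, log axis) of the brightest probe set of each of the 27 tested interferon-stimulated genes, ordered by role; blue marks are the 2 DMSO arrays and red marks the 2 shikonin arrays. For most genes the red and blue marks lie close together or mixed, while the shikonin marks of IFI16 (2616 and 2645) lie clear of its DMSO marks (4307 and 3824); positions of different genes along the axis are not comparable as amounts of RNA.

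IFI16 encodes a DNA sensor of the PYHIN family that binds viral DNA, above all in the nucleus. Its brightest probe set gave signals of 4307 and 3824 on the DMSO arrays and of 2616 and 2645 on the shikonin arrays. Both shikonin arrays were lower than both DMSO arrays, by more than the arrays of a group differed from each other. The means were 4065 ± 342 in DMSO and 2630 ± 20.7 after shikonin (SD, n = 2 each), a 1.54-fold fall. The log2 change was -0.62 (SE 0.072, 95% interval -0.79 to -0.46, limma adjusted p = 0.00117). A second IFI16 probe set gave 4065 and 3787 in DMSO and 2636 and 2579 after shikonin (log2 change -0.59, limma adjusted p = 9.63e-04). On the third probe set, the signals were 2402 and 2259 in DMSO and 1442 and 1320 after shikonin (log2 change -0.75, limma adjusted p = 6.70e-04). All 3 probe sets thus passed, in 1 direction; they read the same RNA on the same arrays and are not independent samples. The name endings _x_at and _s_at mark probe sets that can bind more than one transcript, and all 3 are of these kinds. With a single variance prior in place of a prior that follows signal, limma called no gene at all on the array (2417 genes had an unadjusted p under 0.05), and IFI16 had an unadjusted p of 0.00613 and an adjusted p of 0.163.

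The other nuclear members did not pass. TRIM22, a ubiquitin ligase that restricts viral transcription, gave 1013 and 978 in DMSO and 843 and 858 after shikonin. Its groups did not overlap (log2 change -0.22, 95% interval -0.42 to -0.03, limma adjusted p = 0.155). SP100, a component of PML nuclear bodies, gave 756 and 572 in DMSO and 642 and 507 after shikonin, so its groups overlapped (-0.20, 95% interval -0.56 to 0.16). The 6 tested SP100 probe sets ran from -0.20 to 0.01.

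The sensors of viral RNA in the cytosol are RIGI and IFIH1, the latter known as MDA5. IFIH1 gave 1072 and 993 in DMSO and 762 and 910 after shikonin, with no overlap, but the difference did not pass (log2 change -0.31, 95% interval -0.55 to -0.06, limma adjusted p = 0.118). Its 2 other probe sets lay at 0.04 and 0.13. RIGI gave 232 and 182 in DMSO and 256 and 189 after shikonin. These groups overlapped (0.10, 95% interval -0.38 to 0.57), and the 3 RIGI probe sets ran from -0.34 to 0.10.

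The 2-5A synthetases OAS1, OAS2 and OAS3 answer double-stranded RNA with a messenger that activates the nuclease RNase L, while OASL is a relative without that activity. OAS3 gave 345 and 316 in DMSO and 349 and 397 after shikonin. The groups did not overlap, by a narrow gap (log2 change 0.17, 95% interval -0.15 to 0.49, limma adjusted p = 0.524). Its other, far dimmer probe set gave 44.4 and 30.0 in DMSO and 72.7 and 71.0 after shikonin. That change was larger but did not pass (0.81, 95% interval -0.09 to 1.71, limma adjusted p = 0.253). Changes of OAS1 (-0.10), OAS2 (-0.13) and OASL (-0.20) came from dim probe sets with intervals that reached from -0.99 to 0.73 at the widest. All 3 had another probe set of the opposite sign, at 0.55, 0.92 and 0.03, none of which passed. Of 3 listed partners of this pathway, 2 were tested and 1 was called (50%, against 11.7% of all genes in either direction). So few genes give no share to compare. PDE12, which degrades 2-5A, rose from 4244 and 4157 to 5208 and 4816 (log2 change 0.25, limma adjusted p = 0.0368). On leaving out DMSO 1, DMSO 2 or shikonin 1 the adjusted p of PDE12 was 0.0775, 0.11 and 0.202.

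Nucleases and nucleotide enzymes among the members were ISG20, an exonuclease of RNA, and SAMHD1, which depletes the nucleotides that reverse transcription needs. SAMHD1 gave 111 and 139 in DMSO and 168 and 125 after shikonin, an overlap (log2 change 0.21, 95% interval -0.35 to 0.77). Its 4 tested probe sets all lay above 0, from 0.03 to 0.21, and none passed. A further SAMHD1 probe set, too dim to be tested, gave 5.31 and 6.46 in DMSO and 46.6 and 36.9 after shikonin. Those values lie near or below the level under which probe sets were left out, and with no filter its limma adjusted p was 0.111. ISG20 gave 57.5 and 55.9 in DMSO and 52.4 and 68.1 after shikonin (0.07, 95% interval -0.76 to 0.89).

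IFIT proteins bind viral RNA that lacks the cap marks of the host. IFIT3 was the IFIT member with the narrowest interval. It gave 182 and 174 in DMSO and 164 and 153 after shikonin, with no overlap (log2 change -0.16, 95% interval -0.60 to 0.28, limma adjusted p = 0.678), and its other probe set lay at -0.19. IFIT1 gave 90.2 and 72.3 in DMSO and 106 and 95.3 after shikonin (0.28, 95% interval -0.37 to 0.93). IFIT2 gave 41.8 and 52.7 in DMSO and 26.8 and 29.1 after shikonin (-0.59, 95% interval -1.65 to 0.48), and its shikonin values lay below the filter level of those arrays. The groups of IFIT5 overlapped (-0.12). The 4 genes thus showed 1 positive and 3 negative changes, and none passed.

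The IFITM proteins sit in membranes and hinder the fusion of incoming virus. Of all tested members, IFITM3 and IFITM2 had the narrowest intervals. IFITM3 gave 5707 and 5794 in DMSO and 5795 and 5894 after shikonin (log2 change 0.02, 95% interval -0.10 to 0.15). With quantile normalization this change was -0.03, so it has no settled sign. IFITM2 gave 8648 and 9248 in DMSO and 8403 and 8887 after shikonin (-0.05, 95% interval -0.18 to 0.08). IFITM1 gave 1640 and 1733 in DMSO and 1513 and 1474 after shikonin, without overlap (-0.17, 95% interval -0.34 to 0.00, limma adjusted p = 0.196). The 3 genes are close copies of each other. The IFITM2 and IFITM3 probe sets are of the _x_at kind and that of IFITM1 is of the _s_at kind. The copy to which their signal belongs is thus uncertain.

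Of the GTPases, MX2, a dynamin-like protein that blocks the nuclear entry of retroviruses, gave 3045 and 3154 in DMSO and 3036 and 2474 after shikonin. The lower shikonin array made most of the difference (log2 change -0.18, 95% interval -0.39 to 0.03, limma adjusted p = 0.29). MX1, its relative active against influenza virus, had the lowest change of the members, -1.05, on signals of 42.4 and 59.3 in DMSO and 5.77 and 43.6 after shikonin. The 2 shikonin arrays differ widely and 1 of them overlaps the DMSO arrays, and the 95% interval of -2.54 to 0.43 bounds little. GBP2, a guanylate-binding protein that attacks the vacuoles of intracellular microbes, overlapped too (-0.19, 95% interval -1.28 to 0.89).

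BST2, or tetherin, holds budding virus particles to the cell surface. It gave 2213 and 2324 in DMSO and 2682 and 2503 after shikonin. Both shikonin arrays were higher, but the difference did not pass (log2 change 0.19, 95% interval 0.03 to 0.35, limma adjusted p = 0.133). RSAD2, or viperin, makes a chain-terminating nucleotide. It gave 59.3 and 64.9 in DMSO and 59.99 and 78.3 after shikonin, an overlap (0.13, 95% interval -0.65 to 0.91).

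ISG15 is a ubiquitin-like protein that is attached to other proteins during the response. It gave 789 and 750 in DMSO and 843 and 852 after shikonin, and the groups did not overlap (log2 change 0.14, 95% interval -0.07 to 0.35, limma adjusted p = 0.414). Of 4 listed genes that attach or remove ISG15, 3 were tested and none was called; at an unadjusted p under 0.05 there were 2, both lower, while 28% of all genes passed that limit in either direction. The protease USP18 gave 383 and 425 in DMSO and 264 and 350 after shikonin (log2 change -0.40, limma adjusted p = 0.176). The ligase HERC5 gave 665 and 774 in DMSO and 601 and 595 after shikonin (-0.26, limma adjusted p = 0.194).

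IFI6, a mitochondrial and reticulum protein that restrains apoptosis, had the highest change of the members. It gave 183 and 230 in DMSO and 289 and 267 after shikonin, with both shikonin arrays higher (log2 change 0.42, 95% interval 0.02 to 0.82, limma adjusted p = 0.186). XAF1, which antagonizes the apoptosis inhibitor XIAP, gave 161 and 210 in DMSO and 147 and 129 after shikonin (-0.39, 95% interval -0.89 to 0.11, limma adjusted p = 0.322). All 3 XAF1 probe sets lay below 0. CXCL10, a chemokine that draws activated T cells, gave 58.6 and 85.9 in DMSO and 87.0 and 109 after shikonin. The groups missed each other by a small margin (0.40, 95% interval -0.32 to 1.13, limma adjusted p = 0.494).

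**Figure D2:**
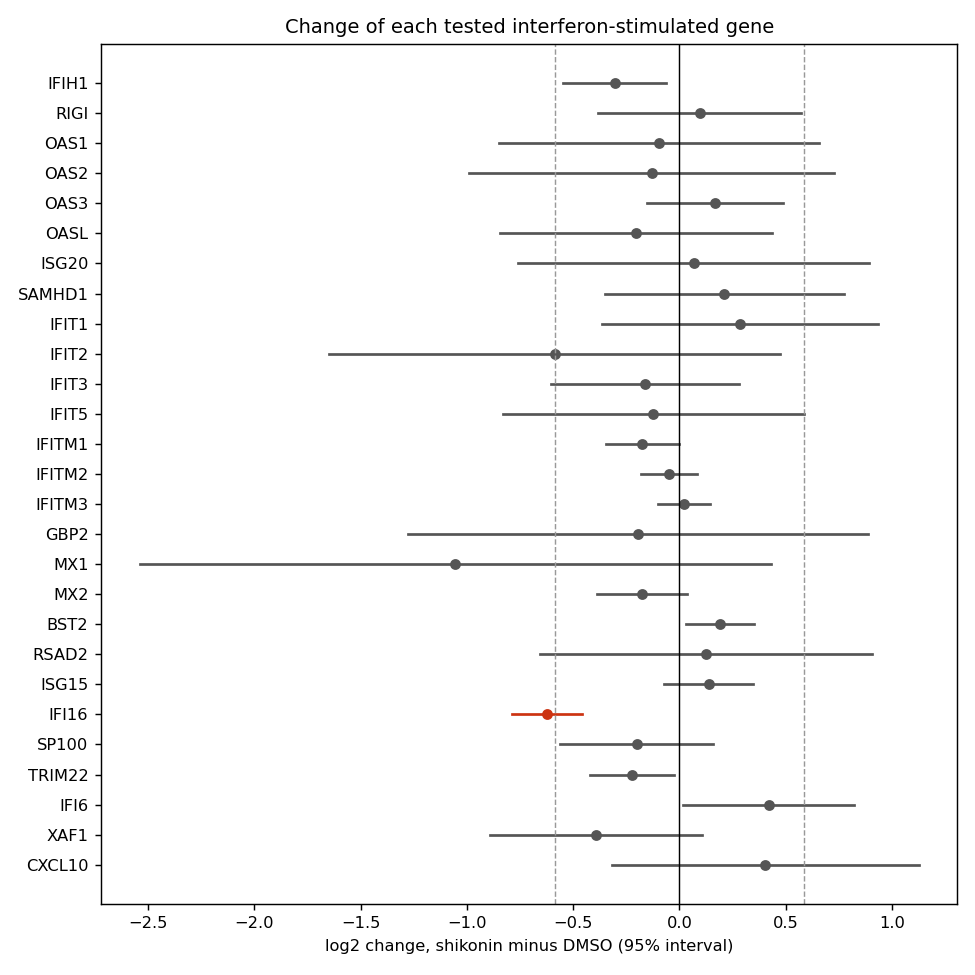
Log2 change (shikonin minus DMSO) of each of the 27 tested genes, with bars for the 95% interval of the limma fit; the solid line marks no change and the dashed lines a 1.5-fold change either way. IFI16, in red, is the called gene, and 11 of the other genes have intervals that lie wholly between the dashed lines.

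The intervals show which changes these arrays could bound. For 11 of the 26 members that were not called, the 95% interval lay within a 1.5-fold change either way: BST2, IFIH1, IFITM1, IFITM2, IFITM3, ISG15, MX2, OAS3, RIGI, SP100 and TRIM22. For the remaining 15, a change of 1.5-fold or more in at least 1 direction was within the interval. These intervals are of the brightest probe set. Another probe set can reach further, as for OAS3 (-0.09 to 1.71 on its other probe set). When the genes tested were split by mean signal into 4 bins of equal size, the interval reached 0.12 to 0.21 to either side of the change for the 5 members in the brightest bin and 0.64 to 1.48 for the 11 members in the dimmest. Calls on the whole array followed brightness as well, at 0.885%, 8%, 18.3% and 19.7% of genes from the dimmest to the brightest bin. Of the members, 11, 6, 5 and 5 were in these bins in the same order, with 0, 0, 0 and 1 called.

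**Figure D3:**
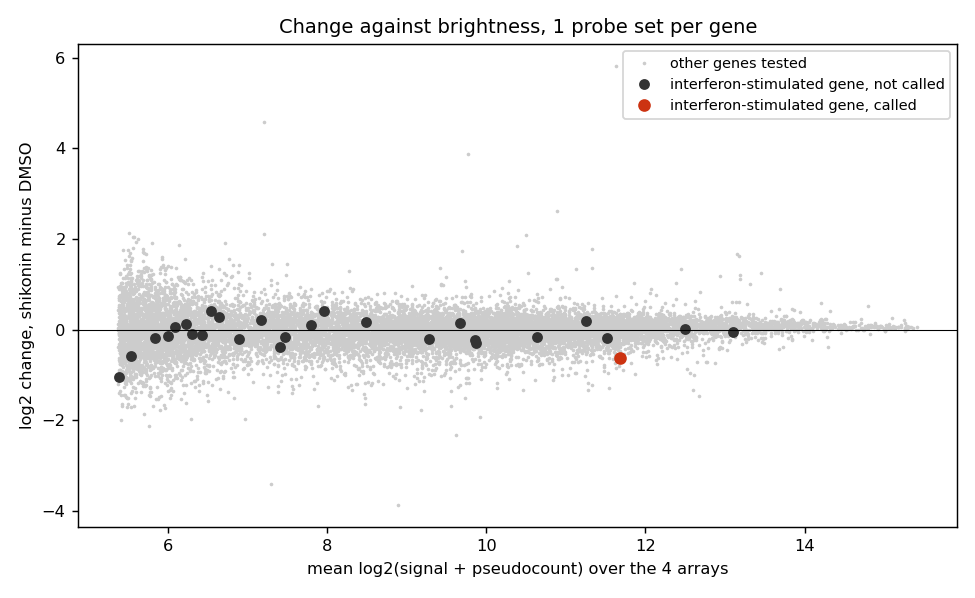
Log2 change (shikonin minus DMSO) against mean log2(signal + pseudocount) over the 4 arrays, 1 point per gene for 13554 genes; the 27 interferon-stimulated genes are the large points. Most lie near the line of no change; IFI16 (red, log2 change -0.62) lies below it among bright genes, and MX1 (-1.05) below it at the dim end.

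Of the 12 members with several tested probe sets, 6 had probe sets on both sides of 0: IFIH1, OAS1, OAS2, OASL, RIGI and SP100. Over all 50 tested probe sets of the members, 3 were called, all lower and all of IFI16. For 12 of the 27 tested members the brightest probe set was of the _x_at or _s_at kind, which can bind more than one transcript. The 5 dim members had 9 probe sets, with signals from 0.932 to 47.5. IFI44 gave 39.0 and 42.1 in DMSO and 11.96 and 18.7 after shikonin on its brighter probe set, and IFI35 gave 47.5 and 27.5 in DMSO and 27.4 and 13.8 after shikonin. For IFI27, 1 DMSO array read 38.7 and the other 3 arrays 2.94 to 5.02. The signals of IFI44L lay between 0.932 and 6.96. GBP1 had 4 probe sets, and the brightest gave 35.3 and 5.61 in DMSO and 17.7 and 15.5 after shikonin. At such signals no direction can be read.

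Among tested members with the ISRE core in a window, 0 of 14 were called and the median log2 change was 0.10. Among those in the table without it, 1 of 6 was called, namely IFI16, and the median was -0.15. Of all genes tested, 11.7% were called in either direction, and calls followed brightness. These are small groups, in which such counts cannot be told from that share, and the difference was not tested.

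The other genes of the interferon pathway are described from lists of textbook genes. Of 54 further interferon-stimulated genes, 46 were tested. Of these, 1 was called higher and 4 lower (10.9%, against 11.7% of all genes called in either direction). The median log2 change of the 46 was -0.01. ZC3HAV1, the zinc finger antiviral protein that marks viral RNA for decay, rose from 2396 and 2488 to 4221 and 3990 (log2 change 0.75, SE 0.065, limma adjusted p = 2.53e-04). Its 2 other probe sets changed by 0.83 each, and 1 of them passed. TRIM25, the ubiquitin ligase that activates RIG-I, fell from 2017 and 2105 to 1624 and 1516 (-0.39, limma adjusted p = 0.0136). TRIM38, a ubiquitin ligase that tunes antiviral signalling, fell by 0.54 on the log2 scale, and SP110, a nuclear body protein, by 0.50. PML, the organiser of those bodies, was the remaining gene called lower (-0.58). It lies outside the rule for named genes and was added after its values were seen. The 4 lower calls became 2, 0 and 1 without DMSO 1, DMSO 2 and shikonin 2. TRIM38 and PML lost their calls in all 3 of these fits, TRIM25 without DMSO 2 or shikonin 2, and SP110 without DMSO 2 or shikonin 1.

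Upstream of the members, 10 of 12 listed genes for interferon receptors and their JAK-STAT signalling were tested. STAT3, a transcription factor shared by many cytokines, fell from 2597 and 2581 to 2068 and 2007 (log2 change -0.34, limma adjusted p = 0.0137), and no other gene of the list was called (10%, against 11.7% of all genes). The call was lost without shikonin 2 (limma adjusted p = 0.0626). Of the 21 interferon genes themselves, 18 had a probe set of their own and 4 were bright enough to be tested. None of the 4 was called, nor did any have an unadjusted p under 0.05 in limma. IFNL2 and IFNA4, with the smallest p of these, changed by 0.59 and 0.43 on signals between 12.6 and 67.0.

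Of 13 brakes on interferon signalling, all tested, 3 were called lower and none higher (23.1%, against 11.7% of all genes). Calls followed brightness, and the share over all genes was 18.3% in the third and 19.7% in the brightest bin of signal. PTPN6, the phosphatase SHP-1 that removes phosphate from JAK kinases, fell from 3669 and 3717 to 2737 and 2880 (log2 change -0.39, limma adjusted p = 0.00572). CISH, a cytokine-induced SH2 protein, was lower by 0.58 on the log2 scale, and PIAS3, an inhibitor of STAT proteins, by 0.74. Without DMSO 2, 1 of the 3 was called, and PIAS3 lost its call without shikonin 1 too (limma adjusted p = 0.0621). CISH changed by -0.25 without DMSO 1 and by -0.21 without DMSO 2, fits in which another of its probe sets was the brightest.

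Among 14 tested genes of nucleic acid sensing and its adaptors, TANK was called lower and TBK1 higher (14.3%, against 11.7% of all genes). TBK1 is the kinase that activates IRF3, and it went from 1054 and 1083 to 1385 and 1335 (log2 change 0.35, limma adjusted p = 0.0297). The TBK1 call depended on each array, with adjusted p of 0.0983, 0.0681, 0.126 and 0.0746 without DMSO 1, DMSO 2, shikonin 1 and shikonin 2. TANK, an adaptor of TBK1, went from 2147 and 2471 to 1504 and 1576 (-0.58, limma adjusted p = 0.00401).

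Interferon regulatory factors are the transcription factors, with STATs, that bind the ISRE. Of the 8 tested, 4 were called lower and none higher (50%, against 11.7% of all genes in either direction), with a median of -0.33. IRF1, an activator that interferon gamma induces, gave 637 and 608 in DMSO and 324 and 412 after shikonin (log2 change -0.75, limma adjusted p = 0.0116). IRF2, which competes with IRF1, gave 591 and 545 in DMSO and 319 and 337 after shikonin (-0.77, limma adjusted p = 0.00566). IRF5, which acts below Toll-like receptors, gave 1434 and 1389 in DMSO and 830 and 896 after shikonin (-0.70, limma adjusted p = 0.00155). The other IRF5 probe sets changed by -0.53 (limma adjusted p = 0.0091) and by -0.42, which did not pass (0.135). IRF8, a factor of the monocytic lineage, was lower by 0.32 on the log2 scale and lost the call without DMSO 1 (limma adjusted p = 0.0798) or shikonin 1 (0.113). IRF3, IRF7 and IRF9, which carry the response to virus and to interferon, lay at -0.15, -0.33 and -0.19 and did not pass; these 3 are outside the rule for named genes and were added after their values were seen.

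**Figure D4:**
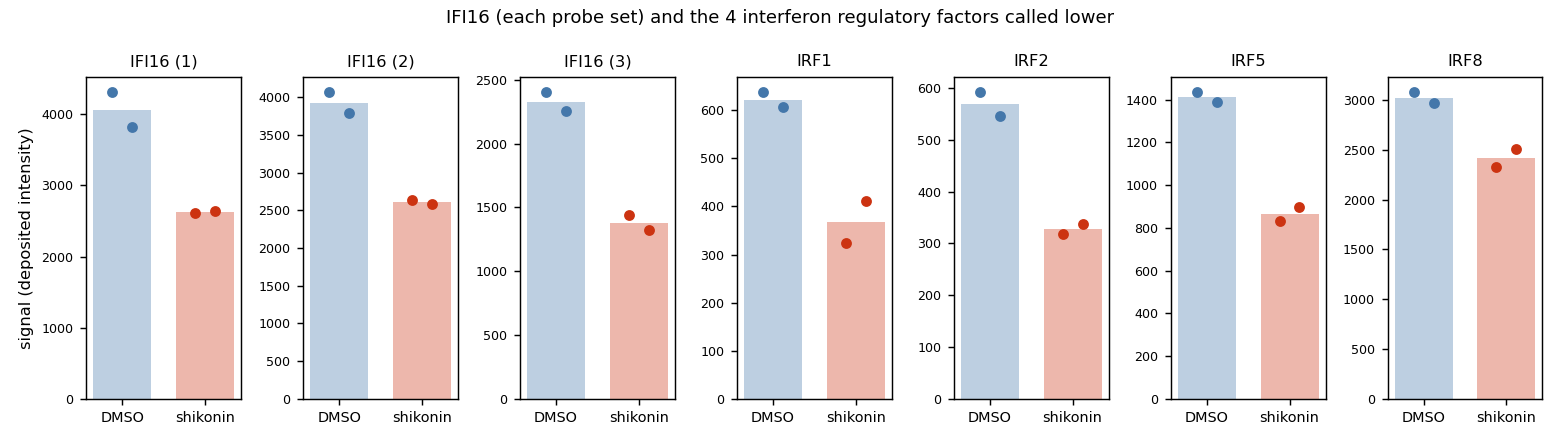
Signal (deposited intensity, linear axes from 0) on the 2 DMSO and 2 shikonin arrays for the 3 probe sets of IFI16 and for IRF1, IRF2, IRF5 and IRF8; bars are group means and points single arrays, and each panel has its own scale. In every panel both shikonin points lie below both DMSO points, with 2616 and 2645 against 4307 and 3824 in the first.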

How the data were processed

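Total RNA of U937 cells was biotin-labelled after 3'-biased amplification and hybridized to Affymetrix U133 Plus arrays, per the labels' protocols. The authors deposited linear intensity values, 1 for each probe set. Which software summarised the probes is not given in the sources used. The mean without the lowest and highest 2% of probe sets was the same on all 4 arrays (about 499.9), so the values were scaled. Probe sets (54675, 41097 of them with a single symbol) took their genes from the supplied platform annotation.

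Control probe sets and the 40% with the lowest mean log2 value were left out, which kept 32768. Differences of log2(intensity + 9.94), the pseudocount being the 20th percentile, were tested two-sided in R 4.3.3 by limma 3.58.1 (a linear fit and eBayes letting variance follow signal, with 2 residual and 7.10 prior degrees of freedom). P-values were adjusted by Benjamini-Hochberg over these 32768 probe sets. Folds understate the change of dim genes. The 95% intervals come from the same fit and are not adjusted for the number of genes. The procedure was tested on simulated data.

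Members, the 8 lists and tests were chosen with earlier results of these data known. All members could be named; of each list, up to 4 called genes with the smallest p, or 2 where none was called. HERC5, USP18 and IRF9 are each in 2 lists. Alternatives covered the pseudocount, filter, normalization, variance prior, replicate block, probe set choice and each array left out. Promoter windows came from RefSeq (GRCh38.p14).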

Additional observations from a re-analysis of the deposited data

How the results depend on the processing

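IFI16 kept its direction wherever it was measured. It lost the call with a single variance prior (log2 change -0.62, limma adjusted p = 0.163), where no gene on the array was called and the counts for the members and for 6 of the lists with a call all went to 0 (none higher, none lower). Without _x_at and _s_at probe sets IFI16 was not measured, so 0 members were called lower; the other ISG list then had 1 lower and the brakes 0, and the median of the members was 0.049. With each array left out in turn, IFI16 ran from -0.71 to -0.54 and stayed called, 1 member was lower and 0 higher, and the median of the members ran from -0.11 to -0.033. Over the same fits, lower calls ran from 0 to 4 among other interferon-stimulated genes, from 1 to 3 among the brakes, from 0 to 1 in the JAK-STAT list and from 3 to 4 among the regulatory factors; higher calls ran from 0 to 1 in the sensing and 2-5A lists. With means over probe sets the median was -0.049, with 1 lower in the other ISG list, 0 in the JAK-STAT list and 0 higher in the 2-5A list. No filter left 0 higher in the 2-5A list, and a filter of 60% gave 2 lower in the sensing list. Same-numbered samples did not deviate together (correlation 0.02). With a replicate block, whole-array calls rose from 685 to 1234 higher and 901 to 1324 lower, IFI16 kept its call (adjusted p 9.01e-06), the other ISG list had 2 higher and the sensing list 2 higher and 2 lower. Signs turned only for genes that were never called: IFITM3 with quantile normalization (-0.030); OAS1 (0.23), OAS2 (0.35) and RIGI (-0.059) with means over probe sets; OAS1 (0.55), OASL (0.032) and SP100 (0.0074) without _x_at and _s_at probe sets. On leaving out 1 array in turn, GBP2 ran from -0.69 to 0.30, OAS1 from -0.25 to 0.059, OAS2 from -0.27 to 0.012, OASL from -0.42 to 0.015, RSAD2 from -0.041 to 0.29, IFNL2 from -0.13 to 0.90, RIGI from -0.11 to 0.30 and ISG20 from -0.095 to 0.23. The cause was not tested. Dim signal limits most members.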

Other observations

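IFI16 lies in a cluster with the other genes of its family, the PYHIN proteins that carry a DNA-binding HIN domain and a pyrin domain. In the RefSeq gene table the order is MNDA, PYHIN1, IFI16 and AIM2. These neighbours were looked at after the value of IFI16 had been seen. MNDA, a nuclear protein of myeloid cells, gave 9952 and 9375 in DMSO and 9624 and 10145 after shikonin, with overlap of the groups (log2 change 0.03, limma adjusted p = 0.782). One PYHIN1 probe set gave 281 and 299 in DMSO and 173 and 143 after shikonin (-0.84, limma adjusted p = 0.0219), while the other, far dimmer, changed by -0.02. AIM2, the DNA sensor of the inflammasome, gave 67.8 and 37.7 in DMSO and 12.8 and 43.6 after shikonin, with overlap (-0.80, limma adjusted p = 0.446).

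Other genes of the response that act on RNA were measured with narrow intervals. ADAR, which edits double-stranded RNA, gave 5615 and 5601 in DMSO and 5780 and 5624 after shikonin (log2 change 0.02, 95% interval -0.10 to 0.15). EIF2AK2, the kinase PKR, gave 1761 and 2087 in DMSO and 2181 and 2042 after shikonin (0.14, 95% interval -0.07 to 0.34). The receptor chain IFNAR2 (0.04, 95% interval -0.13 to 0.21) and the kinases JAK1 (0.00, 95% interval -0.15 to 0.15) and TYK2 (-0.04, 95% interval -0.22 to 0.14) did not pass. Of the 10 tested genes for receptors and JAK-STAT signalling, both shikonin arrays lay below both DMSO arrays for 4 (27.3% of all genes did so). They lay above them for 0 (28.2% of all genes). Among the 4 were JAK2 (-0.39, 95% interval -0.80 to 0.02) and IL10RB (-0.19, 95% interval -0.35 to -0.02), and neither passed. The genes of this paragraph were chosen after their values were seen.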
